A study of Mus musculus with 3 samples.

Results

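The 10 genes described here, in 3 cultures of wild-type mouse embryonic fibroblasts (MEFs), are the lysyl hydroxylases Plod1, Plod2 and Plod3, the prolyl 4-hydroxylase alpha subunits P4ha1, P4ha2 and P4ha3, their shared beta subunit P4hb, the collagen chaperone Serpinh1 (HSP47), the procollagen C-proteinase Bmp1 and its enhancer Pcolce. They were picked by name and function, by a rule that uses no measured value, and make up 10 of the 21782 genes in the count table. All 10 were expressed at 1 count per 1000000 (CPM) or more in each culture. The study examined the variant subunits and partners of cohesin, the ring complex that holds DNA loops and sister chromatids. The RNA-seq samples given here hold 1 condition: asynchronous WT MEFs, isolated from E12.5 embryos and grown in medium with 20% serum, as 3 clones with 1 library each. Mutant or treated cells are not analysed here, so the results are levels and differences between clones. Nothing in the sources used here says whether the clones came from separate embryos, so the spread may be technical, and a clone cannot be told apart from its culture or its library.

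Fibrillar procollagen is made in the endoplasmic reticulum, where its chains are hydroxylated before 3 of them wind into a triple helix. Prolyl 4-hydroxylase, a tetramer of alpha and beta subunits, makes the 4-hydroxyproline that keeps the helix stable at body temperature, and lysyl hydroxylases make the hydroxylysine used for sugar attachment and for cross-links. HSP47 binds the folded helix and travels with it out of the endoplasmic reticulum. Bmp1 then removes the carboxy-terminal propeptide outside the cell, a step that Pcolce speeds, and the trimmed molecules assemble into fibrils. Fibroblasts are the main producers of this collagen in connective tissue.

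Total counts were 22594316 to 25261357 a library, and a count of 0 allows a level of up to 0.119 to 0.133 CPM (3 counts). CPM values are scaled to library size by the trimmed mean of M-values (TMM). Where genes are compared with each other the CPM is divided by transcript length (that of the longest annotated coding form), as CPM per kb. The summed fibroblast markers reached 92920, 67720 and 70910 CPM in clones 1, 2 and 3, and 10 of 10 passed 1 CPM throughout. The 12 macrophage markers were all highest in clone 2, where they summed to 1954 CPM against 410 CPM (clone 1) and 341 CPM (clone 3). The 6 proliferation genes were all lowest in clone 1 (sums of 368, 723 and 609 CPM), and the 3 cell cycle arrest genes were all highest there (587, 411 and 464 CPM). Of the remaining marker lists, 1 of 6 epithelial genes, 1 of 5 endothelial genes, 3 of 6 cartilage genes and 2 of 6 osteoblast genes reached 1 CPM in every clone. Their sums were 3.42 to 7.09 CPM for epithelium, 7.33 to 13.1 CPM for endothelium, 548 to 795 CPM for cartilage and 1303 to 2267 CPM for osteoblasts. The cartilage sum was mostly Col2a1 (mean 649 CPM). Acan was at 43.5, Sox9 at 10.9 and Col9a1 at 2.39 CPM, and Matn1 and Hapln1 were under 1 CPM on average. The osteoblast sum was mostly Spp1 (mean 1838 CPM). Runx2 was at 25.6 CPM, and Bglap, Ibsp, Sp7 and Alpl were under 1 CPM on average. Krt5 and Krt14 were at 0 in clone 2, Matn1 and Bglap at 0 in clone 3, and Tie1 at 0 in all 3 clones. What part other cell types or the growth state have in the differences below was not tested. In bulk RNA, fewer cells of a type and less RNA per cell cannot be told apart.

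A gene count pools all transcripts of a gene. Alternative coding exons were searched for in the Plod and P4ha genes only, and 3 of these have annotated ones that differ in sequence. The exons are shown because the levels of Plod2, P4ha1 and P4ha2 that follow are sums over both forms in each case. Coordinates are those of GENCODE M21 on the mouse build GRCm38, plus strand, 5′ to 3′. Plod2 has an exon of 63 bases (21 codons) at chr9:92601985-92602047, exon 14 of 20, that is present in 1 of its 2 full-length coding transcripts. Inclusion gives the long form of the enzyme.
Plod2 exon 14: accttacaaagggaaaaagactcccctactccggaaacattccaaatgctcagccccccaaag
P4ha1 has a pair of exons of 71 bases each, of which a transcript uses 1 as exon 9 of 15. They lie at chr10:59354340-59354410 and chr10:59355350-59355420 and are identical at 42 of 71 bases. Capitals mark the bases that differ.
P4ha1 exon 9, first: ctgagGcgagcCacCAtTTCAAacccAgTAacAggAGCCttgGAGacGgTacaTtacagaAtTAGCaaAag
P4ha1 exon 9, second: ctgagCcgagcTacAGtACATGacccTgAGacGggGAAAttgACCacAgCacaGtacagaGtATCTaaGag
P4ha2 has a like choice at exon 13 of 16, between 60 bases at chr11:54126238-54126297 (2 of 3 coding transcripts) and 66 bases at chr11:54126346-54126411 (1 of 3). Capitals mark the bases that are identical among the last 20, 16 of 20.
P4ha2 exon 13, first: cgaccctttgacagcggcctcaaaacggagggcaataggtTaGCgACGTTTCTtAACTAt
P4ha2 exon 13, second: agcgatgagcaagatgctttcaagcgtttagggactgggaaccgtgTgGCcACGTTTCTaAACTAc

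Serpinh1 was by far the highest of the 10 genes per length. HSP47, its product, is a chaperone of the serpin family that is specific to collagen. Its levels per kb in clones 1, 2 and 3 were 1880, 2170 and 2006, or 2019 ± 145 CPM per kb (SD, n = 3), from 106236 to 115244 counts. Only 12 of the 11345 expressed genes with a length (0.106%) were higher per kb. P4hb, which encodes protein disulfide isomerase and serves as the beta subunit of prolyl 4-hydroxylase, came next at 739, 851 and 806 CPM per kb (799 ± 56.2, SD, n = 3), with 47 expressed genes above it. Both were lowest in clone 1 and highest in clone 2. The ratio of Serpinh1 to P4hb per kb hardly moved between clones, at 2.55, 2.55 and 2.49 (2.53 ± 0.0347, SD, n = 3). These 2 genes took 62.5%, 68.4% and 68.3% of the counts of the 10 genes, which together made up 1.01%, 1.08% and 1.03% of all counts. Serpinh1 lies at chr7:99345376-99353239 (minus strand, 5 exons, 417 codons) and P4hb at chr11:120560298-120573253 (minus strand, 11 exons, 509 codons).

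**Figure D1:**
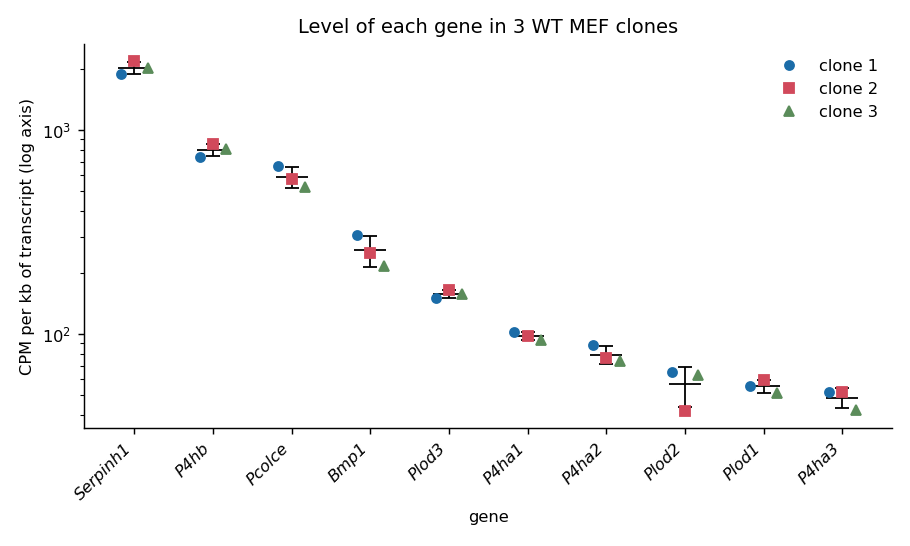
Level of each of the 10 genes in the 3 WT MEF clones, in TMM-scaled CPM per kb of transcript on a log axis. Symbols are clones, the long bar is the mean and the whiskers are ± 1 SD (n = 3); Serpinh1 (mean 2019) and P4hb (799) stand highest, and Plod2, Plod1 and P4ha3 (56.6, 55.5 and 48.7) lie together at the low end.

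The extracellular pair followed. Pcolce, which binds the procollagen propeptide and raises the rate at which it is cleaved, reached 667, 576 and 528 CPM per kb in clones 1, 2 and 3 (590 ± 70.7, SD, n = 3). Bmp1, the metalloproteinase of the astacin family that cleaves there, reached 306, 249 and 217 CPM per kb (257 ± 45.5, SD, n = 3). Both fell in the same order of clones, 1 over 2 over 3. Pcolce stood above Bmp1 by a ratio of 2.18, 2.31 and 2.44 (2.31 ± 0.129, SD, n = 3). Per kb, 92 expressed genes were above Pcolce and 223 above Bmp1. Bmp1 lies at chr14:70474558-70520234 (minus strand, 20 exons, 991 codons) and Pcolce at chr5:137605103-137613784 (minus strand, 10 exons, 493 codons).

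Each of these genes has a relative with the same kind of activity. Tll1, a tolloid-like proteinase related to Bmp1, had 6192, 5855 and 7537 counts, and Bmp1 exceeded it per kb by 5.86, 4.58 and 3.46 in clones 1, 2 and 3 (4.63 ± 1.2, SD, n = 3). The other tolloid-like gene, Tll2, had 4, 4 and 0 counts. Pcolce2, the second enhancer gene, had 487, 1324 and 758 counts, and Pcolce exceeded it per kb by 151, 43.6 and 78.0 (90.9 ± 54.9, SD, n = 3). Bmp1 and Pcolce were thus the higher gene of each pair in every clone, and both ratios were largest in clone 1. With merged exons as the length the mean ratios were lower, at 39.3 ± 23.7 for Pcolce over Pcolce2 and 3.13 ± 0.812 for Bmp1 over Tll1 (SD, n = 3). The margin of Pcolce over Pcolce2 varied by more than that of Bmp1 over Tll1.

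Among the lysyl hydroxylases Plod3 was the highest in every clone. Its product also carries glycosyltransferase activity, which adds sugars to the hydroxylysine. Plod3 reached 150, 164 and 157 CPM per kb in clones 1, 2 and 3 (157 ± 6.89, SD, n = 3). Plod2, whose product hydroxylates lysines in the telopeptides that form cross-links, reached 64.8, 42.0 and 63.0 CPM per kb (56.6 ± 12.7, SD, n = 3). Plod1, whose product acts on lysines of the helix, reached 55.8, 59.5 and 51.2 CPM per kb (55.5 ± 4.13, SD, n = 3). Plod2 was the gene with the widest relative spread, and clone 2 was its low clone. The order of Plod1 and Plod2 turned with the clone, with Plod2 above Plod1 in clones 1 and 3 (ratios of 1.16 and 1.23) and below it in clone 2 (0.706). Of the family's reads per kb, Plod3 took 55.4%, 61.7% and 57.9% (58.4% ± 3.19, SD, n = 3), Plod2 23.95%, 15.8% and 23.2% (21% ± 4.49) and Plod1 20.7%, 22.4% and 18.9% (20.6% ± 1.79). Without division by length, Plod2 took 26.1% of the family's counts in clone 1 (95% Wilson interval 25.5% to 26.7%), 17.4% in clone 2 (16.9% to 17.9%) and 25.3% in clone 3 (24.7% to 25.9%). The interval of clone 2 is apart from both others, although such intervals cover counting error only.

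The 3 lysyl hydroxylases are of like length, with 728 (Plod1), 758 (Plod2) and 741 (Plod3) codons. Their annotated proteins align with an identity of 59.8% for Plod1 and Plod2, 60.7% for Plod1 and Plod3 and 58.3% for Plod2 and Plod3. Plod1 lies at chr4:147909753-147936767 (minus strand, 19 exons), Plod2 at chr9:92542223-92608428 (plus strand, 20 exons) and Plod3 at chr5:136987019-136996648 (plus strand, 19 exons). Exons of Znhit1 on the opposite strand cover 11.7% of the exon length of Plod3. Since the strand setting of the counting is not given in the sources used here, reads there cannot be assigned, and Znhit1 itself had 463, 406 and 486 counts against at least 12099 for Plod3 in each clone. For Plod2, 6.42% of exon length overlaps an annotated gene model on the opposite strand, and for Pcolce 2.93% overlaps other annotated genes on each strand.

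The alpha subunits of prolyl 4-hydroxylase, which carry the catalytic site, were led by P4ha1, by a margin that depended on length. P4ha1 reached 103, 97.4 and 93.6 CPM per kb in clones 1, 2 and 3 (97.9 ± 4.57, SD, n = 3). P4ha2 reached 88.0, 76.3 and 73.5 CPM per kb (79.3 ± 7.68, SD, n = 3), and P4ha3 reached 52.0, 51.8 and 42.3 (48.7 ± 5.55, SD, n = 3). The order P4ha1, P4ha2, P4ha3 held in each clone, and each gene was highest in clone 1 and lowest in clone 3, except that P4ha3 was highest in clone 2 when scaled by total counts. P4ha1 took 42.3%, 43.2% and 44.7% of the family's reads per kb (43.4% ± 1.2, SD, n = 3), P4ha2 36.3%, 33.8% and 35.1% (35.1% ± 1.21) and P4ha3 21.4%, 22.97% and 20.2% (21.5% ± 1.39). The place of P4ha2 depended on the length used. P4ha2 was above P4ha3 by 1.69, 1.47 and 1.74 per kb of the coding transcript (2230 bases), but stood at 0.776 of P4ha3 on average per kb of all its merged exons (6239 bases). P4ha1 was the highest of the 3 under both lengths, with 59.7% of the family on merged exons. Without division by length it took 57.6% of the family's counts, P4ha2 25.7% and P4ha3 16.7%.

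**Figure D2:**
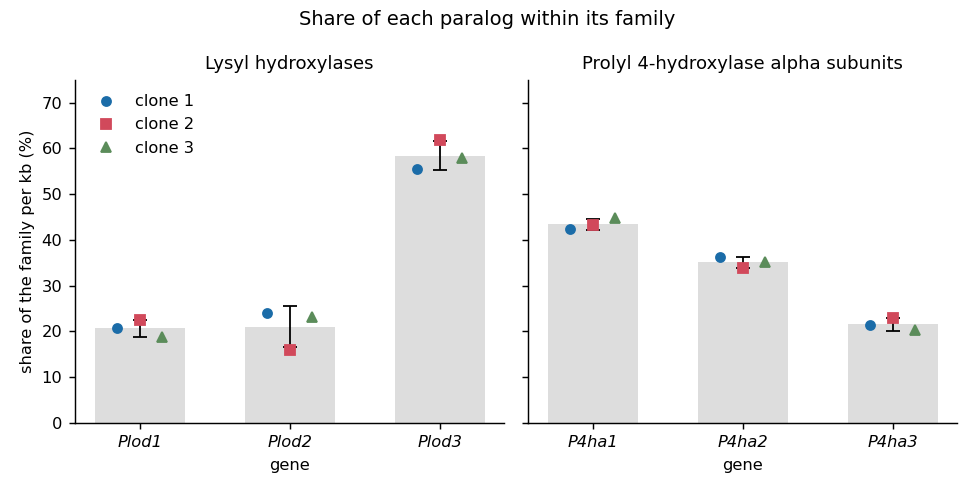
Share of each paralog in the reads per kb of its family, in percent, for the lysyl hydroxylases (left) and the prolyl 4-hydroxylase alpha subunits (right). Bars are means, whiskers ± 1 SD (n = 3) and symbols the clones; Plod3 holds 55.4% to 61.7% of its family, while P4ha1 holds 42.3% to 44.7% of its own.

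P4hb exceeded the sum of its 3 partners in every clone. The ratio of P4hb to P4ha1, P4ha2 and P4ha3 together, per kb, took the values 3.05, 3.77 and 3.85 in clones 1, 2 and 3 (3.56 ± 0.445, SD, n = 3), and 4.98 ± 0.583 with merged exons. Protein disulfide isomerase also acts alone on disulfides in other proteins of the endoplasmic reticulum. The sum of the lysyl hydroxylases stood close to that of the alpha subunits, at ratios of 1.12, 1.18 and 1.3 (1.2 ± 0.0929, SD, n = 3). Of the alpha subunits, P4ha1 and P4ha2 align with an identity of 62.7%, and P4ha3 is less like either, with 40.3% and 39.9%. P4ha1 lies at chr10:59323296-59373304 (15 exons, 534 codons), P4ha2 at chr11:54100095-54131665 (16 exons, 537 codons) and P4ha3 at chr7:100285520-100319699 (13 exons, 542 codons), all on the plus strand.

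From highest to lowest mean per kb the order was Serpinh1, P4hb, Pcolce, Bmp1, Plod3, P4ha1, P4ha2, Plod2, Plod1 and P4ha3. For the first 7 neighbouring pairs the lowest clone of the higher gene was above the highest clone of the lower one, with steps in the mean of 1.24-fold (P4ha1 to P4ha2) to 2.53-fold (Serpinh1 to P4hb). Plod2 and Plod1 overlapped, with a step of 1.02-fold, and so did Plod1 and P4ha3, with a step of 1.14-fold. P4ha3 was nevertheless below Plod1 in each of the 3 clones. With merged exons as the length 4 of the 10 genes kept their place. The top 3 stayed Serpinh1, P4hb and Pcolce, while Plod3 (114 CPM per kb) passed Bmp1 (107) and P4ha2 fell to 28.3 CPM per kb, below Plod2 (38.5) and P4ha3 (36.7). Plod1 was then lowest, at 26.6 CPM per kb.

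The enzymes were next set beside Col1a1, the most abundant fibrillar chain they act on, within each clone. Col1a1 had 796323, 584920 and 635170 counts (27710 ± 3778 CPM, SD, n = 3). Col1a2 reached 14380 ± 2098 CPM and Col3a1 2154 ± 397 CPM (SD, n = 3). The 11 fibrillar chain genes summed to 65610, 52150 and 51160 CPM, so that clone 1 was the high clone for the substrate. Serpinh1 stood at 34.8%, 49.6% and 47.3% of Col1a1 per kb (43.9% ± 7.98, SD, n = 3) and P4hb at 13.7%, 19.4% and 19.0% (17.4% ± 3.22). For both genes clone 1 was well below the other clones. Pcolce stood at 12.3%, 13.2% and 12.4% (12.7% ± 0.457) and Bmp1 at 5.67%, 5.7% and 5.11% (5.49% ± 0.333), so the extracellular pair varied less against Col1a1 than Serpinh1 and P4hb did. P4ha2 was likewise steady at 1.63%, 1.74% and 1.73% (1.7% ± 0.0642). The hydroxylases ranged in the mean from 1.05% ± 0.119 for P4ha3 to 3.41% ± 0.55 for Plod3, with Plod2 at 1.2%, 0.96% and 1.49%. These percentages depend on length. With merged exons the means were 5.81% for Pcolce, 2.52% for Bmp1 and 2.74% for Plod3, and the lowest were Plod1 (0.637%) and P4ha2 (0.673%) rather than P4ha3 (0.873%).

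**Figure D3:**
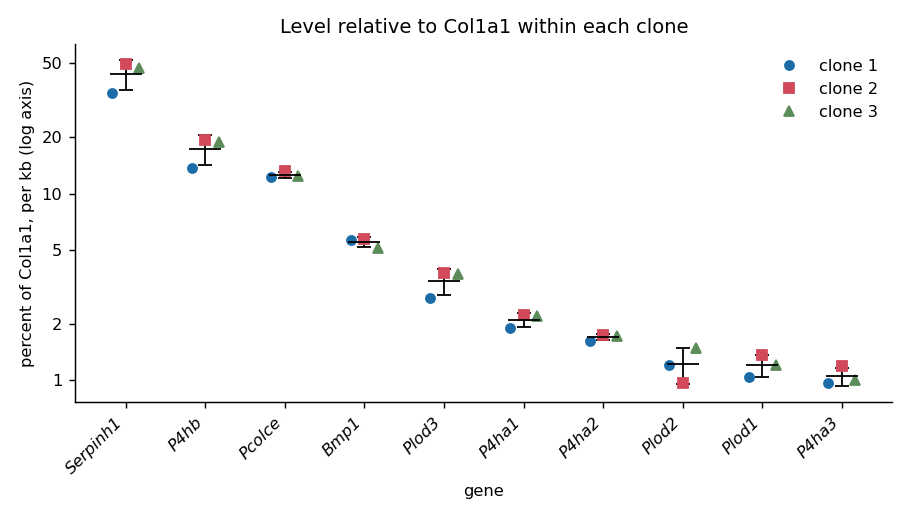
Level of each gene as a percent of Col1a1 in the same clone, both in CPM per kb, on a log axis. Symbols are clones, the long bar is the mean and the whiskers are ± 1 SD (n = 3); for Serpinh1 and P4hb clone 1 (34.8% and 13.7%) lies below the other clones, while Pcolce stays between 12.3% and 13.2%.

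Each gene was then compared between clones. The test was a chi-square test that sets a gene's 3 counts beside the TMM-scaled totals, adjusted over the 12218 genes with at least 10 counts in every library. It compares libraries with counting noise, not conditions. All 10 genes differed at an adjusted p under 0.05, against 62.5% of all genes tested, and at these depths small differences pass. The folds were modest. The highest clone exceeded the lowest by 1.09-fold (Plod3) to 1.54-fold (Plod2), with a median of 1.18 for the 10 genes against 1.24 over all genes tested and 1.16 over the 1722 tested genes at 100 CPM or more. Plod2 alone passed 1.5-fold together with the test, 1 of 10, where 18.6% of all genes tested did so. The shares of 62.5% and 18.6% cover genes of all levels, and none over genes of like level was taken.

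Plod2 had 5896, 3467 and 5830 counts, or 237, 154 and 231 CPM in clones 1, 2 and 3 (207 ± 46.5, SD, n = 3). Clone 2 was the single low library, and clones 1 and 3 differed by 1.03-fold (adjusted p = 0.25 by the chi-square test of that pair). Over the 3 libraries the adjusted p was 1.0e-103. Clone 2 was also the library with the highest macrophage markers (a sum of 1954 CPM against 410 and 341), and their part in the low Plod2 value was not tested.

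Bmp1 had the next largest fold, at 1129, 918 and 798 CPM in clones 1, 2 and 3 (948 ± 167, SD, n = 3), a difference of 1.42-fold between clones 1 and 3. Pcolce moved the same way at 1057, 913 and 836 CPM (936 ± 112, SD, n = 3), a 1.26-fold difference. P4ha3 stood at 123, 122 and 99.9 CPM (115 ± 13.1, SD, n = 3), 1.23-fold, and there the pair of clones 1 and 2 did not pass the test (1.004-fold, adjusted p = 0.90). P4ha2 stood at 196, 170 and 164 CPM (177 ± 17.1, SD, n = 3), 1.2-fold, and there the pair of clones 2 and 3 did not pass the test (1.04-fold, adjusted p = 0.21). These 4 genes and P4ha1 (415, 394 and 378 CPM, 1.1-fold) were all highest in clone 1 and lowest in clone 3, save for P4ha3 with total counts as the scale (highest in clone 2). Of the 10 fibrillar chain genes that differed, 8 were highest in clone 1, as were 2904 of the 7642 genes that differed among all genes tested. Clone 1 also had the lowest proliferation genes (368 CPM against 609 and 723) and the highest arrest genes, and the part of the growth state in these values was not tested.

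Serpinh1 was the reverse for clone 1, at 4276, 4935 and 4563 CPM (4591 ± 330, SD, n = 3), 1.15-fold between clones 2 and 1. P4hb stood at 2114, 2433 and 2307 CPM (2285 ± 161, SD, n = 3), also 1.15-fold. Plod3 stood at 491, 537 and 516 CPM (515 ± 22.6, SD, n = 3), 1.09-fold, with the same order of clones. Plod1 was highest in clone 2 as well but lowest in clone 3, at 181, 193 and 166 CPM (180 ± 13.4, SD, n = 3), 1.16-fold. The 10 genes therefore fell into 6 that were highest in clone 1 (Plod2, P4ha1, P4ha2, P4ha3, Bmp1, Pcolce), 4 that were highest in clone 2 (Plod1, Plod3, P4hb, Serpinh1) and 0 that were highest in clone 3, with TMM scaling. Among all genes tested, 23.8% differed and were highest in clone 1, another 23.5% were highest in clone 2, and 15.3% were highest in clone 3. These shares include genes that did not differ, whereas all 10 genes here did. Of the 7642 genes that differed, 2904, 2867 and 1871 were highest in clones 1, 2 and 3. With scaling by DESeq2's size factors each gene kept its highest and lowest clone. With total counts alone Plod2 was highest in clone 3 (1.53-fold over clone 2) and P4ha3 in clone 2.

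**Figure D4:**
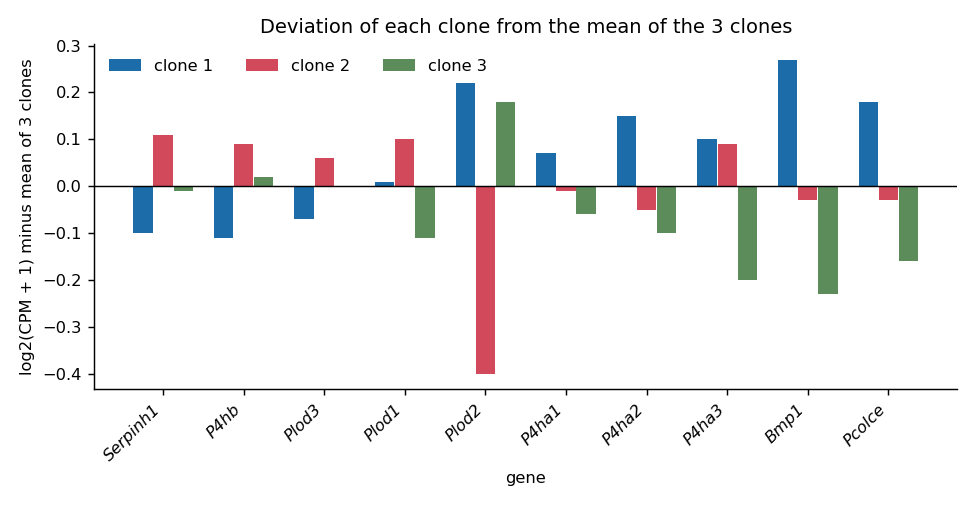
Deviation of each clone from the mean of the 3 clones, in log2(CPM + 1), for the 10 genes. Bars are single libraries; Serpinh1, P4hb and Plod3 are lowest in clone 1, Plod2 is low in clone 2 (-0.40), and the P4ha genes, Bmp1 and Pcolce are highest in clone 1 and lowest in clone 3 under TMM (for Bmp1 0.27 and -0.23), where P4ha3 alone changes its high clone with total counts.

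Taken pair by pair, 9 of the 10 genes differed between clones 1 and 2, where 53.0% of all genes tested did, 9 between clones 1 and 3 (45.3% of all), and 9 between clones 2 and 3 (31.7% of all). The exceptions were P4ha3, Plod2 and P4ha2, in that order. These shares of all genes cover every level, and the test passes smaller differences where counts are high. The spread beyond counting noise, as edgeR's biological coefficient of variation, was lowest for Plod3 (0.107), P4ha1 (0.110), P4hb (0.112), Serpinh1 (0.112), Plod1 (0.118) and P4ha2 (0.125). These 6 lie under the first quartile over all genes tested (0.128). That quartile covers genes of all levels, and the coefficient tended to be larger for genes of low level. The 10 genes stood at 115 to 4591 CPM, and no quartile over genes of like level was taken. Bmp1 (0.152) was near the median of 0.158. Plod2 (0.181) was above it. Without clone 2 Plod2 stood at 0.114, in a range of 0.113 (Plod3) to 0.134 (Bmp1) for the 10 genes. The common coefficient, fitted over all genes tested together, also fell, from 0.187 to 0.142, so the median of 0.158 does not apply there. With all 3 clones the median of the 10 genes was 0.121.

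**Figure D5:**
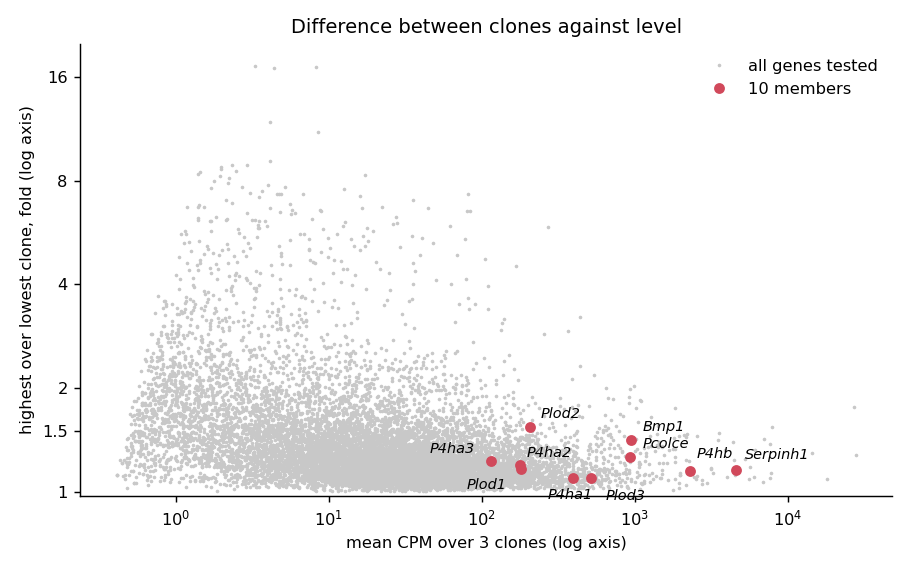
Ratio of the highest clone to the lowest (fold) against mean CPM, both on log axes, for all 12218 genes tested (grey) and the 10 genes (red). The 10 genes lie at the high-expression side between 1.09-fold and 1.54-fold, with Plod2 and Bmp1 uppermost.

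The other genes of collagen folding, secretion and processing were taken from a list of 30, of which 26 have a count in the table under their own symbol. Of the 23 with enough counts, 19 differed between clones, with 6 highest in clone 1, another 9 in the second and 4 in the third. Their median fold over the 23 was 1.13, against 1.24 over all genes tested and 1.16 over the 1722 tested genes at 100 CPM or more. Over all genes tested 62.5% differed, with 23.8% highest in clone 1, 23.5% in clone 2 and 15.3% in clone 3. That is 2904, 2867 and 1871 of the 7642 genes that differed. The highest per kb were the calcium-binding chaperone Calr (1148 ± 50.6 CPM per kb, SD, n = 3), the disulfide isomerase Pdia3 (716 ± 45.6) and the heat shock chaperone Hspa5, known as BiP (532 ± 16.2). Calr and Pdia3 were thus of the order of P4hb, and Serpinh1 was above all 3. All 3 were lowest in clone 1 and highest in clone 2, as were Serpinh1 and P4hb. The largest folds among the genes that differed were those of Pcolce2 (3-fold, highest in clone 2 and lowest in clone 1), the procollagen N-proteinase Adamts14 (1.39-fold, highest in clone 1) and the channel gene Tmem38b (1.33-fold, highest in clone 1). Genes with 0 counts in a library were Tll2 (0 in clone 3) and Mia3, the collagen cargo receptor TANGO1, which is listed at 0 in all 3 clones. Whether the annotation used for counting held Mia3 is not given in the sources used here, so its 0 cannot be read as a level, and P3h1, P3h2, P3h3 and P3h4 were matched to no symbol of the table.

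Several of the 10 genes, among them P4ha1, P4ha2, Plod1 and Plod2, are known targets of the hypoxia-inducible factors. A list of 15 other genes of that response was therefore read beside them. Of the 14 with enough counts 10 differed between clones, 4 highest in clone 1 and 6 in clone 2, and 5 of the 10 were lowest in clone 1. Among all genes tested 62.5% differed, with 23.8% highest in clone 1, 23.5% in clone 2 and 15.3% in clone 3. That is 2904, 2867 and 1871 of the 7642 genes that differed. The share of the list that differed was thus near the background. Of the 4 hydroxylase genes, Plod1 was highest in clone 2 and the others in clone 1 (Plod2 in clone 3 with total counts). Any part of the hypoxia response in these values was not tested.

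The windows of 250 bases before the start of P4ha1, P4ha2 and P4ha3 are shown because these genes shared a highest and a lowest clone. With TMM these were clones 1 and 3, as for Bmp1 and Pcolce, and with total counts P4ha3 was highest in clone 2. The choice used the measured values of 3 libraries, so the windows are no test of a shared pattern. The window of Pcolce is not shown. The pair of clones 1 and 2 did not pass the test for P4ha3 (1.004-fold), nor did clones 2 and 3 for P4ha2 (1.04-fold). The starts are those of RefSeq on GRCm38.p6. Capitals mark the letters ACGTG and GCGTG, forms of the core bound by hypoxia-inducible factors, on either strand.
P4ha1, chr10:59323046-59323295, plus strand: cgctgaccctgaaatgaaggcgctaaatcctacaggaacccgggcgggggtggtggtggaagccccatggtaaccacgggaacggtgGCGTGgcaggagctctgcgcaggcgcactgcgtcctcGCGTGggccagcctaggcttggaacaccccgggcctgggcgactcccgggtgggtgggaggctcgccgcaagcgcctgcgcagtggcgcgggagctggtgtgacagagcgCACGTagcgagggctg
P4ha2, chr11:54100674-54100923, plus strand: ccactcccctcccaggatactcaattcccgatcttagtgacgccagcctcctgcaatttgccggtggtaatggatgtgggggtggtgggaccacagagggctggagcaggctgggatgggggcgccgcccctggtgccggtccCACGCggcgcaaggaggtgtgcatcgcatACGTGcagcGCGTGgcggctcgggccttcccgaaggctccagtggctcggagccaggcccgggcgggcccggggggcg
P4ha3, chr7:100285270-100285519, plus strand: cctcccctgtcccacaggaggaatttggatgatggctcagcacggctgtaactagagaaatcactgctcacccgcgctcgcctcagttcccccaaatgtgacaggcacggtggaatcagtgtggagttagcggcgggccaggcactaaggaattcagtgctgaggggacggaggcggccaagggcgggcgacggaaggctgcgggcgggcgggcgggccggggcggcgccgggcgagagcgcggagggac
In P4ha1 the ACGTG is on the minus strand 16 to 12 bases before the start, and in P4ha2 it is on the plus strand 78 to 74 bases before. The P4ha3 window holds neither ACGTG nor GCGTG. Whether these letters have a part in the differences between clones was not tested. Windows were matched for 8 of the 10 genes, all but Plod2 and Bmp1. ACGTG stood in 5 of 8 (Plod3, P4ha1, P4ha2, P4hb, Serpinh1), against 16.6% of 32851 windows of the same length, and GCGTG in 6 of 8 against 28.2%. The other letters searched on both strands were GGGCGG (7 of 8, 32.7% of all windows), CCACG (5 of 8, 28.3%), CCAAT (2 of 8, 33.8%), TATAAA (1 of 8, 12.4%), TTCNNGAA (1 of 8, 7.2%) and GAANNTTC (0 of 8, 6.7%). CCACG overlaps GCGTG and ACGTG where they meet, so these counts are not independent. The 8 windows held 55.6% to 70.0% G and C, above the 52.4% median of all windows. A match is a description of the letters and says nothing of binding in these cells.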

How the data were processed

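The 3 WT MEF libraries were made from poly(A)+ RNA and read as 86-nt single reads. The deposited values are raw counts per gene, which the authors made with HTSeq from alignments by TopHat 2.0.0 (2 mismatches, up to 5 hits per read). The submitters' processing notes name mm9 and the study's methods mm10; which annotation and strand setting HTSeq used is not given in the sources used here. Lengths and coordinates were taken by symbol from GENCODE M21 (GRCm38; 21117 of 21782 symbols matched directly and 594 more through a synonym).

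Counts were scaled by TMM (factors of 0.984 to 1.02) in edgeR 4.0.16. With 1 library per clone and 1 condition, counts were compared between libraries by a chi-square test (2 degrees of freedom), Benjamini-Hochberg adjusted over the genes that had 10 or more counts in each library, at a threshold of 0.05. Tagwise dispersions came from an intercept-only fit, and log2 values carry a pseudocount of 1. Coding sequences were translated and aligned in Biopython 1.88. Tested on simulated data (200 genes changed 2-fold in 1 library among 12408 tested), the test recovered 94.5% and called 5 unchanged genes. The simulated counts held counting noise only, without the spread between clones present in the data, so they do not measure recovery under that spread.

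The rule for the 10 genes uses no measured value, but it, the lists and the naming rule (all 10, and of the pathway list those at 0 in a library, the 3 highest per kb and the 3 largest folds among genes that differed) were chosen with earlier results of these data known. Alternatives were DESeq2 1.42.0 size factors, total counts, other count minimums, merged exons or no length, and leaving out each clone.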

Additional observations from a re-analysis of the deposited data

How the results depend on the processing

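The number of genes differing between libraries was 7642 of 12218 as reported, 7629 with DESeq2's size factors, 7802 with total counts, 7834 with no minimum beyond 1 count and 7094 at 50 counts. With 1 clone left out the number was 3893 (without clone 1), 5627 (without clone 2) and 6531 (without clone 3). Each of these settings compared 2 libraries, and 9 of the 10 genes differed each time. The exceptions were P4ha2 without clone 1, Plod2 without clone 2 and P4ha3 without clone 3. Plod2's coefficient of variation was 0.114 without clone 2, against 0.181, while the common coefficient over all genes tested also fell, from 0.187 to 0.142. With merged exon length Plod1 took 14.9% of its family, Plod3 63.7%, P4ha1 59.7% and P4ha2 17.6%, and 4 genes kept their place in the order. With no length the shares were 57.6% for P4ha1, 25.7% for P4ha2 and 16.7% for P4ha3. With total counts the highest clone turned from 1 to 3 for Plod2 and from 1 to 2 for P4ha3. No paired analysis was possible because the samples form 1 group.

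With 3 libraries of 1 condition, differences are between libraries only. Order by length depends on which transcripts the cells use, which gene counts do not show. Depth allows levels down to 0.119 to 0.133 CPM, and every one of the 10 genes was above this by far.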
